A study of Mus musculus with 30 samples.

Results

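The inducible heat shock chaperones described here are 10 genes out of the 19737 in a table of whole-brain RNA from Arid1b-mutant and wildtype mice. They are Hspa1a, Hspa1b, Hsph1, Dnajb1, Hspa8, Hsp90aa1, Hspb1, Hspa5, Bag3 and Hspe1, a list named for heat shock genes of the type that the factor HSF1 controls. The name fits only part of the list. Hspa8 is the constitutive HSP70, Hspa5 the HSP70 of the endoplasmic reticulum, and Hspe1 belongs to the mitochondrial chaperonin. All 10 were chosen by name as a list. Hspa1a was selected on its fold change between fluoxetine and vehicle in wildtype adults, where it was among the genes most lowered. For this reason the values of that contrast are given as a description, without a test. All 10 genes passed the filter on low values, a mean of at least 10, in each comparison.

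The study asked how loss of one copy of Arid1b, a subunit gene of the BAF chromatin remodelling complex linked to autism, changes the mouse brain, and how early fluoxetine, a serotonin reuptake inhibitor, acts on it. RNA was measured in 30 whole brains of male mice, with 5 libraries in each of 6 groups. The mutants, called HT, were Arid1b+/- mice on a C57BL/6N background in which exon 5 had been targeted by Cas9 nickase, born to HT fathers and wildtype (WT) mothers. The P10 groups (HT and WT, killed at postnatal day 10) received no drug. The P120 groups (HT-Veh, HT-Flx, WT-Veh and WT-Flx, killed at postnatal day 120) came from dams that drank 0.2% saccharin, with 0.1 mg/ml fluoxetine for Flx and without it for Veh, from P3 to P21, so the pups were exposed through the mother. The mutation was present in all cells from conception, and every HT group carried it.

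Heat shock proteins are chaperones, proteins that hold or refold other proteins. HSP70 proteins bind unfolded stretches in cycles of ATP use, J domain proteins such as Dnajb1 bring them clients, and nucleotide exchange factors such as Hsph1 and Bag3 make them let go. HSF1 binds short inverted repeats of the letters GAA, called heat shock elements, and switches on the inducible members under heat and other protein-damaging stress, while Hspa8 and Hsp90aa1 are already abundant in unstressed neurons.

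Values are read counts that the authors normalized with DESeq2, so the number of reads behind each is unknown and differences were read against the spread between mice. The sum over all genes ran from 31578614 to 32445810 per library at P10 and from 32484635 to 41801037 at P120. Arid1b, the targeted gene, had 2162 to 2334 normalized counts in the 5 P10 HT libraries and 3164 to 3309 in the 5 P10 WT libraries. At P120, the library labelled HT-Veh replicate 2 had 3361, within the WT range, and the library labelled WT-Veh replicate 2 had 2320, within the HT range. Both were kept under their labels, and the fold changes, shares and list counts that include them were also computed without them. The P120 libraries further differed in how their values ran with the GC content of genes, as measured by the slope of a library's deviation from the P120 mean. This slope ran from −0.40 to −0.31 on the log2 scale per 10% GC in WT-Flx libraries, from −0.26 to 0.19 in WT-Veh, from −0.38 to 0.41 in HT-Veh and from 0.29 to 0.67 in HT-Flx. Members differ in GC content, from 43.7% in Hsp90aa1 to 60.7% in Hspb1, so fold changes are also given after correcting for GC and for the length of transcripts.

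Hspa1a and Hspa1b, the stress-inducible HSP70 genes, lie side by side on the minus strand of chromosome 17 (GRCm38), at chr17:34969190-34972156 (ENSMUSG00000091971) and chr17:34956436-34959238 (ENSMUSG00000090877). They are near-identical copies. Of all 100-base windows of the Hspa1a transcript, 47.1% were also found in Hspa1b, and 49.9% of Hspa1b windows were found in Hspa1a. How reads were split between both genes is therefore uncertain, and their sum is given beside them.

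RefSeq promoters (GRCm38.p6, 250 bases before to 50 bases after the start site) were found for 8 of the 10 genes. Hspa8 and Hsp90aa1 were not in that table. The letters searched were GAANNTTC or TTCNNGAA, a pair of inverted units, and 3 such units, in which a match is followed by 2 free bases and a further inverted unit, on both strands, with overlapping matches joined. A pair of units was present in 6 of the 8 promoters, against 17.0% of the promoters of 27025 genes, and 3 units in 2 of the 8, Hsph1 and Hspe1, against 0.662%. No match was found in the windows of Dnajb1 and Hspa5. The sequences of 4 genes are shown, 5′ to 3′ on the gene's strand with the matches in capitals, because they cover the pair of HSP70 genes with the greatest difference between ages, the small heat shock gene Hspb1 that was also higher in adults, and Hspe1, which had the longest match and no difference between ages.
Hspa1a, chr17:34972107-34972406, minus strand: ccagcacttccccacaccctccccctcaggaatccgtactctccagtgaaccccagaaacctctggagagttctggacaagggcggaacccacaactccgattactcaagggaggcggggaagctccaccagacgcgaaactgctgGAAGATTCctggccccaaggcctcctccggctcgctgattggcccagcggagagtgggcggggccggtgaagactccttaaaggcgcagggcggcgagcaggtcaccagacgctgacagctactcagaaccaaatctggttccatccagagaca
Hspa1b, chr17:34959189-34959488, minus strand: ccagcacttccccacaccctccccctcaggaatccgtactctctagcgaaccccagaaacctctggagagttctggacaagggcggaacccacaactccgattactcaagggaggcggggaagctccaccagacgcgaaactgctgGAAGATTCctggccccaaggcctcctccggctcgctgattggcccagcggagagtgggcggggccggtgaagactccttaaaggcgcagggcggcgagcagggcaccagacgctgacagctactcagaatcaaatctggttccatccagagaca
Hspb1, chr5:135887669-135887968, plus strand: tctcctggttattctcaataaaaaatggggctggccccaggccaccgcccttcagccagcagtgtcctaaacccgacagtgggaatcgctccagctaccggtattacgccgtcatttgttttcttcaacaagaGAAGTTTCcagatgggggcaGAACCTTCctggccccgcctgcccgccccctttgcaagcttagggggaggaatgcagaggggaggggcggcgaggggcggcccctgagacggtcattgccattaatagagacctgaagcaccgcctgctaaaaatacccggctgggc
Hspe1, chr1:55087898-55088197, plus strand: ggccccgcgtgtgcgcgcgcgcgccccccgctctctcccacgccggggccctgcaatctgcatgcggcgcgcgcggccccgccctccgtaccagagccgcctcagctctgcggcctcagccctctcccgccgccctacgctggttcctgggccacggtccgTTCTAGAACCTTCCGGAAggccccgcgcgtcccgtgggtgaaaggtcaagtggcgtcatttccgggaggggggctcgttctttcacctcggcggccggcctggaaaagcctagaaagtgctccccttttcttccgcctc
The windows of Hspa1a and Hspa1b were identical at 296 of 300 bases, and the match lay at the same place in both, from 104 to 97 bases before the start site. Hspb1 had one match from 117 to 110 and another from 97 to 90 bases before its start, and the match of Hspe1 ran from 89 to 72 bases before its start. In Hsph1, one match lay before the start and the longer one after it, and the match of Bag3 also lay after its start. These matches describe letters and not measured binding.

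Per kilobase of transcript, Hspa8, the constitutive HSP70 of the cytosol, had the highest level in all 6 groups. Its mean was 28107 ± 413 normalized counts per kb in P10 WT brains (SD, n = 5) and 26883 ± 3513 in P120 WT-Veh brains (SD, n = 5). Hsp90aa1, the stress-responsive HSP90 of the cytosol, was next with 9014 ± 215 and 7147 ± 1987 per kb in these groups (SD, n = 5 each). Hspa5, the HSP70 of the endoplasmic reticulum also known as BiP, followed with 2010 ± 107 and 3055 ± 566 per kb, and Hsph1 and Hspe1 lay between 1233 and 2056 per kb in all groups. Hspb1, Bag3, Hspa1a and Hspa1b were at the bottom of the order at P10. Hspb1 had 189 ± 15.6, Bag3 96.2 ± 4.51, Hspa1a 72.1 ± 10.0 and Hspa1b 42.2 ± 5.77 normalized counts per kb in P10 WT brains (SD, n = 5 each). Hspa1b, last of the 10 at P10, was 6th in WT-Veh adults with 843 ± 185 per kb, while Hspa1a with 626 ± 89.7, Hspb1 with 625 ± 156 and Dnajb1 with 729 ± 46.0 per kb followed it closely (SD, n = 5 each). Neighbours in this order differed by less than the larger of their SDs, except Dnajb1 and Hspa1a, which differed by slightly more. Without WT-Veh replicate 2 the levels of Hspa1b, Dnajb1, Hspb1 and Hspa1a were 886, 735, 639 and 637 per kb.

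For Hspa1a, Hspa1b, Hsph1, Dnajb1, Hspb1 and Bag3, P120 vehicle and P10 brains differed by more than any groups within P10 or P120. Hsp90aa1, Hspa8 and Hspe1 differed as widely or more within P120. For Hspa5, the means on the log2 scale were 13.49 in WT-Flx and 12.93 in HT-Flx brains. That gap within P120 was wider than its age fold change of 0.48 in HT brains and near that of 0.59 in WT brains. In HT-Veh against P10 HT brains, 7 of the 10 genes were higher at P120 and 0 were lower, and the same 7 were higher in WT-Veh against P10 WT brains. These were Hspa1a, Hspa1b, Hsph1, Dnajb1, Hspb1, Hspa5 and Bag3. The background was wide as well, since 25.8% of all tested genes were higher and 25.3% lower at P120 in HT brains, and 28.9% were higher and 29.4% lower in WT brains (adjusted p under 0.05, limma). The WT-Veh libraries are also the controls of the fluoxetine contrast that led to the list, whereas the HT libraries are not part of it. Fold changes, ranks, shares and p-values of the members with age in WT brains are therefore not independent of that choice. Age, the saccharin vehicle and any batch that goes with age cannot be told apart here.

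Hspa1b had 69.1, 125, 98.9, 117 and 124 normalized counts in P10 HT brains (replicates 1 to 5) and 1458, 1217, 1968, 1603 and 1706 in HT-Veh brains. In P10 WT brains it had 101, 113, 133, 107 and 137, and in WT-Veh brains 1761, 1882, 2583, 2610 and 2978. Every adult library was far above every P10 library, in both genotypes. The log2 fold change, on the log2(value + 1) scale, was 3.90 in HT brains (SE 0.18, 14.9-fold, adjusted p = 1.50e-08, limma) and 4.29 in WT brains (SE 0.15, 19.6-fold, adjusted p = 6.25e-10, limma). By log2 fold change, Hspa1b was 26th of 17989 genes in HT and 17th of 17927 in WT brains.

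Hspa1a had 184, 232, 201, 210 and 216 normalized counts in P10 HT brains and 1990, 1329, 2122, 1054 and 1254 in HT-Veh brains. In P10 WT brains it had 241, 173, 245, 207 and 202, and in WT-Veh brains 1501, 1731, 2211, 1980 and 1867. The adult libraries were again all higher, although the HT-Veh libraries were spread more widely than the WT-Veh ones. The log2 fold change was 2.84 in HT brains (SE 0.18, 7.14-fold, adjusted p = 1.53e-07, limma) and 3.11 in WT brains (SE 0.12, 8.65-fold, adjusted p = 1.19e-09, limma). For the sum of both genes it was 3.30 in HT (SE 0.15) and 3.65 in WT brains (SE 0.12). Hspa1a ranked 88th in HT and 51st in WT brains by log2 fold change. Its WT values use the vehicle libraries of the contrast from which it was picked, so they are not independent of that choice.

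**Figure D1:**
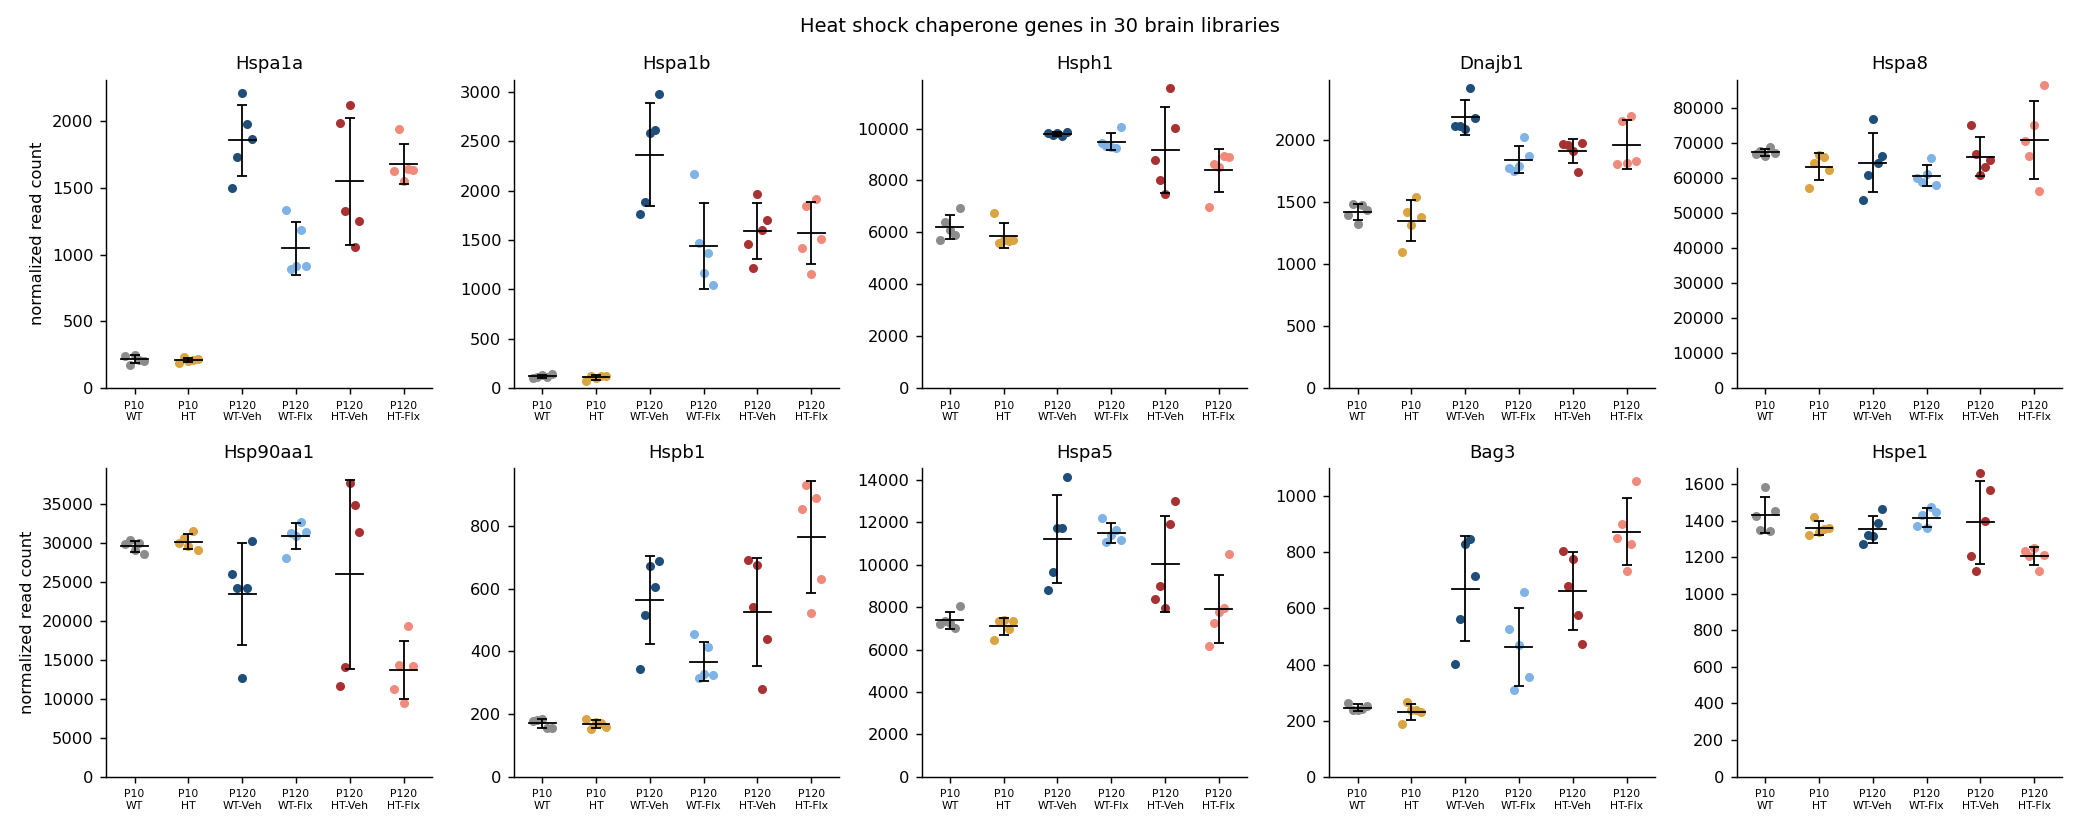
Normalized read counts (linear axis from 0) of the 10 genes in 30 libraries, one panel per gene, with a point per library, a line at the mean and bars of 1 SD in each group of 5. Hspa1a and Hspa1b sit between 69.1 and 245 in the P10 libraries and between 890 and 2978 in the P120 libraries, and Hsp90aa1 is spread from 9448 to 37676 at P120.

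The share of the pair assigned to Hspa1a differed with age too. It was 66.5% ± 3.72 in P10 HT and 64.3% ± 4.37 in P10 WT brains, and 48.8% ± 7.50 in HT-Veh and 44.4% ± 3.67 in WT-Veh brains (SD, n = 5 each). No adult library reached the lowest P10 share of its genotype, so the groups did not overlap. The difference was −17.7 percentage points in HT and −19.9 in WT brains (exact permutation test, two-sided, p = 0.00794 for each, the smallest that 5 against 5 allow, with an adjusted p of 0.0198 over 5 comparisons). The other 3 comparisons were between HT and WT at P10 (2.22 points, exact permutation p = 0.421), HT-Veh and WT-Veh (4.42 points, exact permutation p = 0.262) and HT-Flx and HT-Veh (3.25 points, exact permutation p = 0.421). Each of these 3 had an adjusted p of 0.421. Without HT-Veh replicate 2 and WT-Veh replicate 2 the age differences were −18.6 and −20.8 points (exact permutation test, two-sided, p = 0.0159 for each, adjusted p = 0.0397). The share depends on how the authors' read assignment split the near-identical copies.

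**Figure D2:**
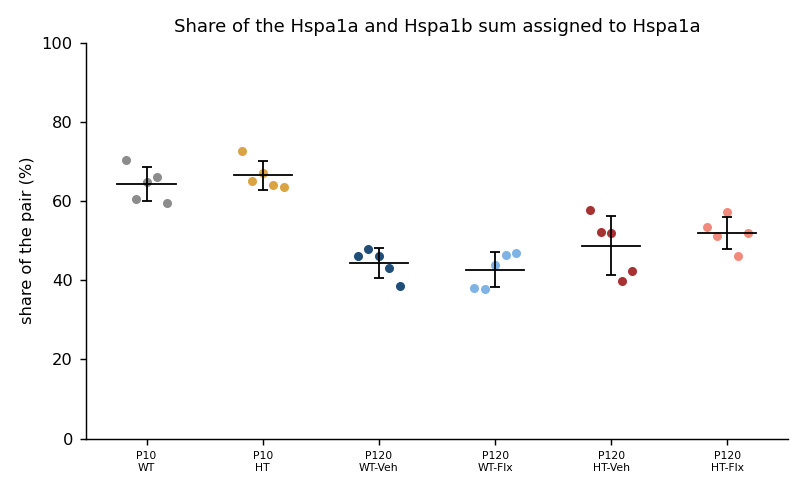
Share of the summed Hspa1a and Hspa1b value that was assigned to Hspa1a (percent, axis from 0 to 100) in each library, with the mean and SD of each group of 5. The 10 P10 libraries lie between 59.6% and 72.7% and the 20 P120 libraries between 37.8% and 57.7%.

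Among the 10 genes, the small heat shock gene Hspb1 and the cochaperone gene Bag3 showed the next widest age difference. Hspb1, which binds unfolding proteins without using ATP, had 184, 153, 175, 171 and 157 normalized counts in P10 HT brains and 693, 541, 677, 278 and 438 in HT-Veh brains. Its log2 fold change was 1.57 in HT (SE 0.22, adjusted p = 6.66e-05, limma) and 1.68 in WT brains (SE 0.17, adjusted p = 2.40e-06, limma). HT-Veh replicate 4 was the lowest adult library and still lay above all P10 libraries. Bag3, which couples HSP70 to selective autophagy, had 186, 265, 239, 238 and 229 in P10 HT brains and 806, 682, 777, 576 and 472 in HT-Veh brains. Its log2 fold change was 1.49 in HT (SE 0.16, adjusted p = 8.56e-06, limma) and 1.39 in WT brains (SE 0.17, adjusted p = 1.81e-05, limma).

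Hsph1, the HSP110 that acts as exchange factor of HSP70, had 6738, 5572, 5699, 5655 and 5694 normalized counts in P10 HT brains and 8782, 8001, 7459, 11572 and 10031 in HT-Veh brains. In WT-Veh brains it was almost constant, at 9793 ± 63.4 (SD, n = 5), against 6206 ± 472 in P10 WT brains (SD, n = 5). The log2 fold change was 0.63 in HT (SE 0.13, adjusted p = 0.00132, limma) and 0.66 in WT brains (SE 0.06, adjusted p = 1.05e-06, limma). For Dnajb1, the means were 1352 ± 165 in P10 HT and 1916 ± 96.8 in HT-Veh brains, and 1423 ± 64.3 in P10 WT and 2185 ± 138 in WT-Veh brains (SD, n = 5 each). The Dnajb1 fold change of 0.51 on the log2 scale in HT (SE 0.11, adjusted p = 0.00180, limma) was near that of 0.62 in WT brains (SE 0.06, adjusted p = 3.25e-06, limma). Hspa5 had 7103 ± 398 normalized counts in P10 HT and 10058 ± 2264 in HT-Veh brains (SD, n = 5 each), a log2 fold change of 0.48 (SE 0.14, adjusted p = 0.0132, limma). In WT brains the Hspa5 fold change was 0.59 (SE 0.11, adjusted p = 0.000446, limma). For Hsph1, Dnajb1 and Hspa5 the groups did not overlap in either genotype, nor did they for the other 4 genes that were higher, as was the case in this direction for 20.4% of all genes in HT and 22.6% in WT.

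The remaining 3 genes did not pass the test. Hspa8 had log2 fold changes of 0.06 in HT (SE 0.11) and −0.07 in WT brains (SE 0.08), and Hspe1, which caps the mitochondrial chaperonin, had 0.02 (SE 0.12) and −0.08 (SE 0.07). Hsp90aa1 was close to constant at P10, with 30153 ± 948 normalized counts in HT and 29573 ± 704 in WT brains (SD, n = 5 each). In adults it was spread widely, with 11610, 14091, 37676, 34852 and 31448 in the HT-Veh libraries and 26019, 24149, 12651, 24214 and 30216 in WT-Veh brains. Its log2 fold change was −0.38 in HT (SE 0.29, adjusted p = 0.296, limma) and −0.39 in WT brains (SE 0.18, adjusted p = 0.0743, limma). In WT brains, leaving out WT-Veh replicate 3, the low library, or WT-Veh replicate 5 brought Hsp90aa1 under the threshold, with log2 fold changes of −0.18 and −0.50.

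The 7 calls held without HT-Veh replicate 2 and WT-Veh replicate 2, with each other library left out, and after correction for GC content and length. Without both libraries, log2 fold changes in HT and WT brains were 3.99 and 4.37 for Hspa1b, 2.88 and 3.14 for Hspa1a, and between 0.50 and 1.70 for the other 5. Hsp90aa1, not called, went from −0.38 to −0.20 in HT brains. On a scale centred on all 30 libraries, the slope with GC content ran from −0.44 to −0.22 at P10, from −0.12 to 0.33 in WT-Veh and from −0.25 to 0.55 in HT-Veh libraries. Corrected log2 fold changes in HT and WT brains were 3.58 and 4.08 for Hspa1b, 2.44 and 2.89 for Hspa1a, 1.16 and 1.46 for Hspb1, 1.17 and 1.17 for Bag3, 0.86 and 0.80 for Hsph1, 0.74 and 0.74 for Hspa5 and 0.31 and 0.55 for Dnajb1. The correction thus lowered the fold changes of the GC-rich genes and raised those of Hsph1 and Hspa5, the members of lower GC content. For Hsp90aa1 it gave 0.06 in HT and −0.11 in WT brains, in place of −0.38 and −0.39.

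**Figure D3:**
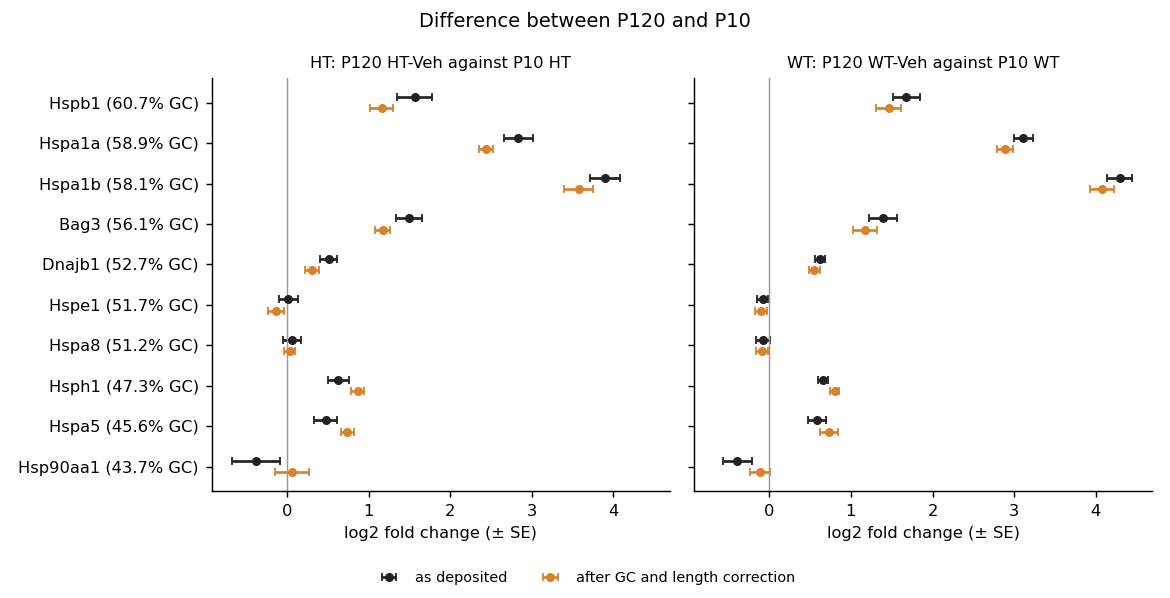
Log2 fold change with its SE (horizontal axis) of the 10 genes between P120 vehicle and P10 mice, for HT brains in the left panel and WT brains in the right, as deposited (black) and after correction for GC content and length (orange), with genes ordered by GC content. Hspa1b and Hspa1a lie at 3.90 and 2.84 in HT brains and at 4.29 and 3.11 in WT brains.

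Other genes of protein folding, 83 in 9 lists, gave a mixed picture with age. Of the 82 tested, 30 were higher and 14 lower at P120 in HT brains, and 38 were higher and 20 lower in WT brains. Without HT-Veh replicate 2 and WT-Veh replicate 2 the counts were 30 and 14 in HT, and 36 and 18 in WT brains. In HT brains, 2 of 5 small heat shock genes were higher and 1 lower. Cryab, the lens and glial crystallin, had a log2 fold change of 2.22, Hspb8 one of 1.67 and Hspb3 one of −1.04 (adjusted p = 8.07e-08, 5.48e-05 and 0.00814, limma). Of 10 further HSP70 and HSP110 genes, 2 were higher (Hyou1 at 0.88 and Hspa2 at 0.59) and 2 lower (Hspa13 at −0.79 and Hspa4 at −0.65). Of 10 J domain genes, Dnaja4 at 1.75 and Dnajb2 at 1.28 were higher and Dnaja1 at −0.79 was lower. The HSP90 cochaperones had 5 of 14 higher, led by Cdc37, and 1 lower, Ptges3. The partners of HSP70 in nucleotide exchange and ubiquitination had 3 of 8 higher and 2 lower, and those of the mitochondrial chaperonin 5 of 6 higher and 1 lower, Hspd1 at −0.67, which encodes the chaperonin that Hspe1 caps. None of the 8 subunits of the cytosolic chaperonin TRiC was higher and 3 were lower, with Cct6a at −0.76 and Tcp1 at −0.71. In WT brains, 6 subunits were lower and 1, Cct3, was higher.

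The HSF list held 4 genes. Hsf4 was higher at P120 in HT brains with a log2 fold change of 4.29 (39.9 ± 12.2 normalized counts at P10 and 792 ± 259 at P120; SD, n = 5 each), and Hsf1 with 0.67 (1052 ± 48.6 and 1674 ± 130). Hsf2, with −0.63, and Hsbp1, which binds and restrains HSF1, were lower. In WT brains the 4 genes had the same calls, Hsf4 at 3.83, Hsf1 at 0.47, Hsf2 at −0.40 and Hsbp1 at −1.04. Of 17 genes of the endoplasmic reticulum stress response, 9 were higher and 1 lower in HT brains, with Sdf2l1 at 1.50, Ddit3 at 1.08, Herpud1 at 1.04 and Pdia3 at −0.62. In WT brains the counts were 11 higher and 1 lower. These lists were drawn up with earlier results of these data known. Their shares stand against a background of 25.8% higher and 25.3% lower in HT brains, and 28.9% higher and 29.4% lower in WT brains.

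Genes that follow temperature, activity and cell composition differed between the ages as well. Both cold-inducible RNA-binding genes were lower at P120 in HT brains, Rbm3 at −0.92 and Cirbp at −0.52 on the log2 scale, and in WT brains, at −0.82 and −0.41. Their summed level was 7291 to 7728 in P10 HT and 4013 to 4909 in HT-Veh libraries. Of 14 clock genes, 11 were higher and 0 lower in either genotype, and of 11 immediate early genes 6 were higher in HT and 10 in WT brains and 0 lower. Among marker lists, 5 of 5 choroid plexus genes were higher in either genotype, with sums of 7060 to 12148 in P10 HT and 24421 to 38155 in HT-Veh libraries. In HT brains, 5 of 7 oligodendrocyte, 4 of 6 microglia, 3 of 5 ependyma and 4 of 8 neuron genes were higher, and 0, 0, 0 and 3 of them lower. Markers of endothelium and mural cells had 3 of 10 higher and 3 lower, those of astrocytes 1 of 6 higher and 1 lower, and those of erythroid cells 0 of 5 either way. In WT brains, the higher and lower counts were 4 and 0 for oligodendrocytes, 4 and 1 for microglia, 3 and 0 for ependyma and 4 and 2 for neurons. Endothelium and mural cells had 2 higher and 6 lower there, astrocytes 1 and 1, and erythroid cells 0 and 2. Without HT-Veh replicate 2 and WT-Veh replicate 2, these counts moved by at most 1 gene in each direction. They stand against 25.8% of all tested genes higher and 25.3% lower in HT brains, and 28.9% higher and 29.4% lower in WT brains. No marker was at 0 in all 30 libraries, and the neuron markers Snap25 and Slc17a7 were abundant, as the tissue label requires. The part of these genes in the chaperone differences was not tested. In whole tissue, fewer cells of a type and less RNA per cell cannot be told apart.

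At P10, none of the chaperone genes passed the test between HT and WT brains. Of the 10, 0 passed the adjusted threshold and 0 had an unadjusted p under 0.05 (limma), against a background of 4 of 17896 genes (0.0224%) past the adjusted threshold and 2249 at an unadjusted p under 0.05. Log2 fold changes ran from −0.17 for Hspa1b (SE 0.16) to 0.03 for Hsp90aa1 (SE 0.03), and after correction for GC content and length from −0.15 for Hspa1b to 0.05 for Hspb1. Hspa8 had the lowest unadjusted p, 0.0545 (limma), with −0.09 (SE 0.04). The sum of Hspa1a and Hspa1b was 316 ± 40.6 in HT and 332 ± 34.6 in WT brains (SD, n = 5 each), and the values of HT and WT overlapped for all 10 genes, where 1.43% of all genes lay wholly higher and 1.69% wholly lower in HT.

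In vehicle-treated adults, the comparison of HT-Veh with WT-Veh asks what the mutation alone does at P120. It used replicates 1, 3, 4 and 5 of each group, which leaves out both libraries that went against their labels. These WT-Veh libraries are also controls of the fluoxetine contrast from which Hspa1a was picked. Lower HT-Veh values of the HSP70 pair, and the p-values of members here, are therefore not independent of that choice. The result table of the study for this comparison has columns for these libraries alone, although its figure legends name all mice of each group. None of the 10 genes passed the adjusted threshold, nor did any of the 17784 tested genes (0%), with 229 genes and 1 member at an unadjusted p under 0.05 (limma). After correction for GC content and length the latter counts were 434 genes and 3 members, Hspa1b, Hspa1a and Dnajb1, again with 0 past the adjusted threshold. Leaving out 1 library gave between 139 genes (without WT-Veh replicate 5) and 435 (without HT-Veh replicate 4). The member called by the unadjusted p before correction was Hspa1b, at 1458, 1968, 1603 and 1706 normalized counts in the HT-Veh libraries and 1761, 2583, 2610 and 2978 in WT-Veh brains. The groups overlapped through the lowest WT-Veh library. On the log2 scale the fold change was −0.54 (SE 0.18, unadjusted p = 0.0131, adjusted p = 1.00, limma). With all 5 libraries of each group it was −0.56, and after correction for GC content and length −0.63. Hspa1a had −0.28 (SE 0.24), which became −0.38 (SE 0.10) with the correction, and it ran from −0.44 without HT-Veh replicate 3 to −0.10 without HT-Veh replicate 4.

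Dnajb1 was the only one of the 10 whose HT-Veh and WT-Veh values did not overlap, which was true of 0.506% of all tested genes in the lower direction. It had 1975, 1915, 1749 and 1980 normalized counts in the HT-Veh libraries and 2116, 2088, 2424 and 2183 in WT-Veh brains, a log2 fold change of −0.21 (SE 0.13, unadjusted p = 0.136, limma) that was −0.27 (SE 0.11) after correction. The other 7 genes lay between −0.19 for Hspb1 (SE 0.31) and 0.25 for Hsp90aa1 (SE 0.38). Leaving out 1 library moved Hsp90aa1 from −0.02 (without WT-Veh replicate 3) to 0.64 (without HT-Veh replicate 1).

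Fluoxetine in HT brains was compared in 5 HT-Flx and 5 HT-Veh libraries. Of the 10 genes, 0 passed the adjusted threshold, as did 0 of all 17676 (0%), while 3 members and 4082 genes had an unadjusted p under 0.05 (limma). These counts moved with single libraries, with 0 members and 1331 genes without HT-Veh replicate 4, 0 members and 1280 genes without HT-Veh replicate 5, and 1 member and 1723 genes without HT-Flx replicate 1. There were 2383 genes without HT-Flx replicate 3, 2589 without HT-Flx replicate 2 and 6666 without HT-Veh replicate 1. After correction for GC content and length the counts were 1 member and 2002 genes. Hsp90aa1 had 11264, 14295, 9448, 19304 and 14222 normalized counts in HT-Flx brains, against 11610, 14091, 37676, 34852 and 31448 in HT-Veh brains. The HT-Veh libraries fell into a low pair, replicates 1 and 2, inside the HT-Flx range, and 3 libraries above it. The log2 fold change was −0.80 (SE 0.32, unadjusted p = 0.0277, adjusted p = 0.215, limma).

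Hspb1 had 855, 930, 523, 891 and 631 normalized counts in HT-Flx and 693, 541, 677, 278 and 438 in HT-Veh brains. The ranges overlapped, and the log2 fold change was 0.58 (SE 0.25, unadjusted p = 0.0353, adjusted p = 0.215, limma). Bag3 had 851, 901, 735, 829 and 1056 in HT-Flx and 806, 682, 777, 576 and 472 in HT-Veh brains, with 1 HT-Flx library inside the HT-Veh range and 4 above it. The log2 difference was 0.42 (SE 0.16, unadjusted p = 0.0245, adjusted p = 0.215, limma). Hspa1a, at 0.17 (SE 0.19), and Hspa1b, at −0.02 (SE 0.17), were within their error.

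The slope with GC content was 0.29 to 0.67 in HT-Flx and −0.38 to 0.41 in HT-Veh libraries, so it differed along with these fold changes. After correction, Hsp90aa1 had −0.40 (SE 0.23), Hspb1 0.35 (SE 0.16), Bag3 0.14 (SE 0.12), Hspa1a −0.19 (SE 0.11) and Hspa1b −0.30 (SE 0.17), with adjusted p between 0.440 and 0.614 (limma). Hspa1a thus changed sign, and Bag3 went from 0.42 to 0.14. Without HT-Veh replicate 2, 0 members passed as well, and Hsp90aa1 had −0.98 as deposited.

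Fluoxetine in WT brains is the contrast from which Hspa1a was picked, and its values are given without a test. Hspa1a had 1331, 890, 912, 1184 and 917 normalized counts in WT-Flx brains and 1501, 1731, 2211, 1980 and 1867 in WT-Veh brains. All WT-Flx libraries lay below all WT-Veh libraries, which held for 4.12% of all 17865 genes in this direction. The log2 fold change was −0.84 (SE 0.13). Without WT-Veh replicate 2 it was −0.86, and leaving out each library in turn gave −0.93 to −0.77. Hspa1b had 2164, 1465, 1165, 1371 and 1038 in WT-Flx brains and 1761, 1882, 2583, 2610 and 2978 in WT-Veh brains, so WT-Flx replicate 1 lay inside the vehicle range. Its log2 fold change was −0.73 (SE 0.19), and that of the sum of both was −0.78.

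Dnajb1 had 1780, 1752, 1793, 2029 and 1872 normalized counts in WT-Flx brains, all below the WT-Veh range of 2088 to 2424, with a log2 fold change of −0.24 (SE 0.07). Hspb1 at −0.59 (SE 0.18) and Bag3 at −0.53 (SE 0.23) were lower with overlapping groups, and Hsp90aa1 at 0.45 (SE 0.18) was higher. The others, Hsph1, Hspa8, Hspa5 and Hspe1, lay between −0.08 and 0.07. Again the slope with GC content differed, at −0.40 to −0.31 in WT-Flx and −0.26 to 0.19 in WT-Veh libraries. After correction, Hspa1a had −0.55 (SE 0.11), Hspa1b −0.49 (SE 0.19), Hspb1 −0.43 (SE 0.17), Bag3 −0.29 (SE 0.20), Dnajb1 −0.15 (SE 0.08) and Hsp90aa1 0.23 (SE 0.13). Hsph1 went from −0.05 to −0.14 (SE 0.05) and Hspa5 from 0.06 to −0.10 (SE 0.11), while Hspa8 had −0.04 and Hspe1 0.06. Of all genes, 0 passed the adjusted threshold in this contrast (limma), and 4504 had an unadjusted p under 0.05. Without WT-Veh replicate 1, 1124 lower and 276 higher genes passed the adjusted threshold. Without WT-Veh replicate 5, 555 lower and 69 higher genes passed it. The HT-Veh against WT-Veh comparison shares its HT-Veh libraries with the fluoxetine comparison in HT brains and its WT-Veh libraries with that in WT brains. Its values are therefore not independent of either, whereas the fluoxetine comparisons share no library with each other.

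**Figure D4:**
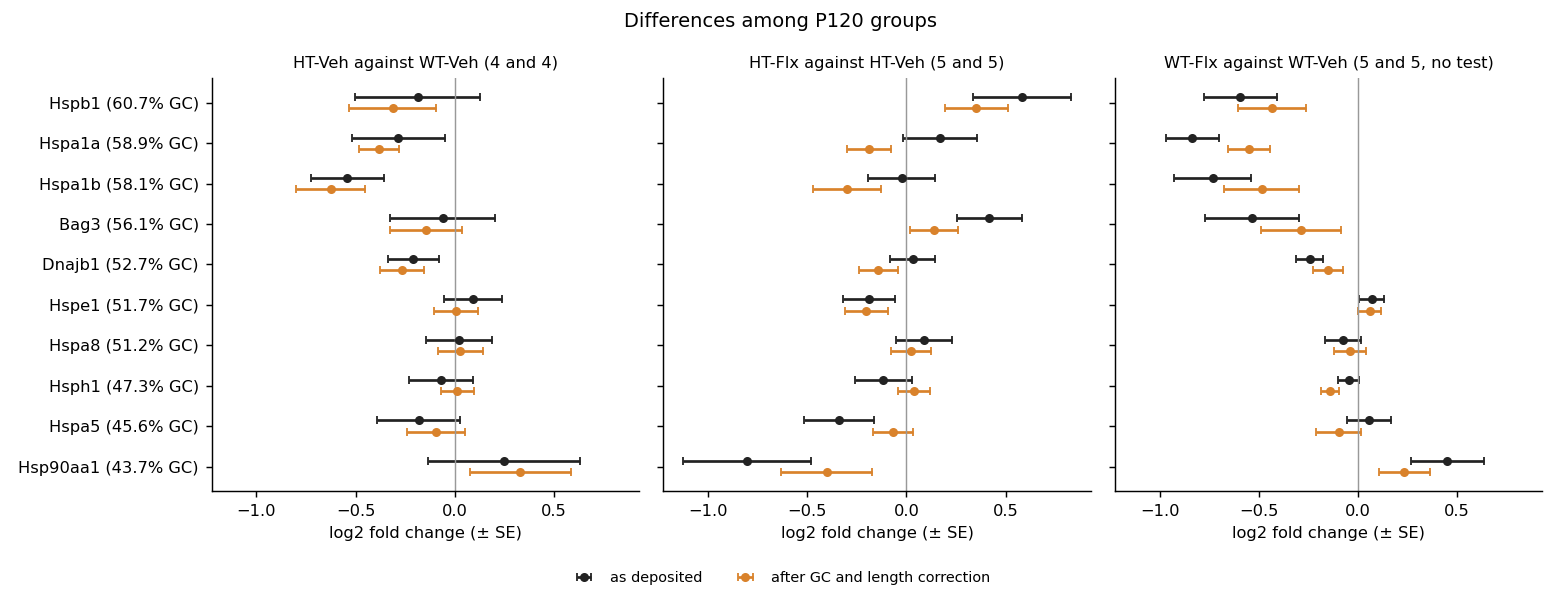
Log2 fold change with its SE (horizontal axis) of the 10 genes in 3 comparisons among P120 groups, as deposited (black) and after correction for GC content and length (orange), with genes ordered by GC content from top to bottom. As deposited, Hspa1a lies at −0.28, 0.17 and −0.84 and Hsp90aa1 at 0.25, −0.80 and 0.45 in the panels from left to right, and the corrected values of both fluoxetine panels lie closer to 0 for Hsp90aa1, Hspb1 and Bag3.

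Across the 20 P120 libraries, Hsp90aa1 and the HSP70 pair followed the GC slope differently. Hsp90aa1 was between 28081 and 32698 normalized counts in the 5 WT-Flx libraries, whose median slope was the lowest of the 4 groups, and between 9448 and 19304 in the 5 HT-Flx libraries, whose median slope was the highest. WT-Veh replicate 3, with the highest slope of its group at 0.19, had 12651, and HT-Veh replicates 4 and 5, with slopes of −0.38 and −0.32, had 34852 and 31448. HT-Veh replicate 3, with a slope of 0.18, had 37676 and stood apart from the other libraries of similar slope. The summed Hspa1a and Hspa1b value ran from 1955 to 3496 in WT-Flx and from 2712 to 3788 in HT-Flx libraries, and its 3 highest values, 4590, 4794 and 4845, were in WT-Veh replicates 4, 3 and 5, with slopes of −0.07, 0.19 and −0.26. The part of the GC slope in these levels was not tested beyond the corrected values above.

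**Figure D5:**
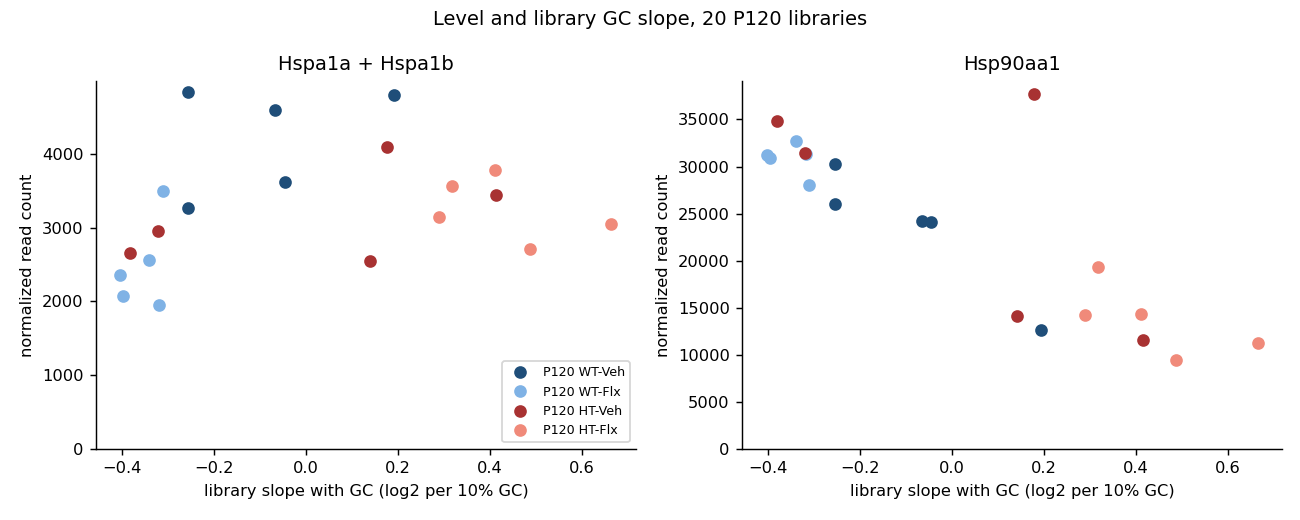
Normalized read count (vertical axis, from 0) of the Hspa1a and Hspa1b sum and of Hsp90aa1 against each library's slope with GC content (horizontal axis, log2 per 10% GC) in the 20 P120 libraries, coloured by group. Hsp90aa1 falls from about 28081 to 32698 in the WT-Flx libraries at the left to 9448 to 19304 in the HT-Flx libraries at the right, with HT-Veh replicate 3 above the rest at 37676.

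Within groups, the genes whose levels were most like the HSP70 pair were looked for by correlating each gene with the log2 sum of Hspa1a and Hspa1b over the 30 libraries, after each group had been centred on its mean. Among 14523 genes, the highest Pearson correlations outside the list were those of Mlec (0.819), a lectin of the endoplasmic reticulum, Bfsp2 (0.772), a beaded filament gene best known from the lens, Serpinh1 (0.708), the collagen chaperone HSP47, Il4ra (0.701) and Shroom3 (0.698). Of the members, Hspb1 had 0.648, which ranked 27th, and Bag3 0.619, which ranked 64th. Hspe1 had 0.350, Dnajb1 0.344, Hspa8 0.145, Hspa5 0.135, Hsp90aa1 0.072 and Hsph1 −0.290. Over the 20 P120 libraries alone, Mlec had 0.848, Hspb1 0.763 and Bag3 0.616, and over the 10 P10 libraries 0.669, −0.399 and 0.721. Without HT-Veh replicate 2 and WT-Veh replicate 2, Mlec and Bfsp2 were still first and second (0.829 and 0.814 over 28 libraries), whereas Il4ra ranked 13th, Serpinh1 14th and Shroom3 42nd. Hspb1 then had 0.699 and Bag3 0.647. All points share the library and its GC slope, and the GC content of Hspb1, Bag3 and the 5 other genes was between 51.9% and 60.7%.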

How the data were processed

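Poly-A libraries (TruSeq) were sequenced by the authors on a NovaSeq with paired ends, and transcripts of GRCm38 were quantified with Salmon 1.1.0, using its GC bias option. Gene sums from tximport were normalized in DESeq2 1.30.1, per the methods and the submitters' processing notes. The deposited values are this normalized signal, not whole reads, so depth is unknown and no count model was used. Symbols were matched for 99.9% of genes. Here, log2(value + 1) was compared with limma 3.58.1 (R 4.3.3, intensity trend) in genes with a mean of at least 10, adjusted over all genes by Benjamini-Hochberg at 0.05. Labels give 1 library per mouse number.

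The correction subtracted each library's mean deviation in bins of GC content and transcript length. Tests were checked on simulated data. Alternatives were other pseudocounts, filters and scalings, no trend, the replicate block, all P120 groups in one fit, the summed pair and left-out libraries. Corrected fits without both replicates labelled 2, or with all 5 vehicle libraries, and shares, levels, lists and correlations without both, were added after seeing the data. The members and lists were chosen with earlier results of these data known. Named were the members, up to 3 higher and 3 lower genes per list with the largest fold change past the threshold, and the 5 genes most like the pair. Other libraries of the study were not used here.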

Additional observations from a re-analysis of the deposited data

Results flagged for a closer look

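In 6 of the 60 sets of 5 libraries formed by the 10 genes and 6 groups, 1 library lay far from the others, where chance gives about 3. Hspa1a had 1942 normalized counts in HT-Flx replicate 2, above the other libraries of its group at 1555 to 1646. Hsph1 was high in P10 HT replicate 1 with 6738 and in WT-Flx replicate 5 with 10061, and low in HT-Flx replicate 1 with 6956. Dnajb1 was high in WT-Veh replicate 4 with 2424 and low in HT-Veh replicate 4 with 1749. P10 HT replicate 1 also had the lowest slope with GC content of the P10 libraries, −0.17 on the log2 scale per 10% GC, and HT-Flx replicate 1 the highest of the P120 libraries, 0.67.

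For 4 genes, all HT-Flx libraries lay on one side of the HT-Veh mean and all WT-Flx libraries on the other side of the WT-Veh mean. The share of all genes that meet this rule was not computed, so the count is not read as a trait of the list. The fluoxetine effect in HT minus that in WT mice, on the log2 scale, was 1.00 for Hspa1a, 0.95 for Bag3, −1.25 for Hsp90aa1 and −0.26 for Hspe1. After correction for GC content and length they were 0.36, 0.43, −0.64 and −0.26, with Hspa1a lower in both genotypes, at −0.19 in HT and −0.55 in WT mice. Without HT-Veh replicate 2 and WT-Veh replicate 2 they were 0.98, 1.02, −1.46 and −0.32 uncorrected. Hspb1 missed the rule through an HT-Flx library at 522.6, just under the HT-Veh mean of 525.3. Its difference was 1.175 as deposited and 0.787 after correction, with 0.35 in HT and −0.43 in WT mice. These differences were not tested, since the WT contrast was used to draw up the list. The slope with GC content also differed in opposite directions, and its part was not tested beyond these corrected values.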

How the results depend on the processing

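The 7 genes called higher at P120 were called in both genotypes under each alternative run (6 of 9 with the pair summed). With a replicate block, the members called lower with age in WT went from 0 to 1, Hsp90aa1 at −0.39 (adjusted p = 0.0481, limma), and without 1 replicate the count ran from 0 to 1. In no comparison did every same-numbered pair correlate above 0.1, so the numbers were not taken to pair the libraries. By this measure HT-Flx and HT-Veh came nearest, with 3 of 5 pairs above 0.1 and a mean of 0.179 against −0.044 for other numbers. Of their 10 libraries, 5 were closest to their own number. There the block raised the calls over all genes from 0 to 1292 lower and 63 higher, with 0 members called. Between HT and WT at P10, 7 of 10 libraries were closest to their own number, although 0 pairs were above 0.1 and their mean was 0.043. With the block, 1 member had an unadjusted p under 0.05 at P10 (limma) and 0 passed the adjusted threshold. With GC and length correction, uncalled values changed sign at P10 for Hspa1a (0.042), Hsp90aa1 (−0.019) and Hspb1 (0.054), between HT-Veh and WT-Veh for Hsph1 (0.013) and, with 5 libraries each, Hspe1 (−0.062), between HT-Flx and HT-Veh for Hspa1a (−0.19), Hsph1 (0.038) and Dnajb1 (−0.14), and with age in HT for Hsp90aa1 (0.058) and Hspe1 (−0.14). Also without HT-Veh replicate 2 and WT-Veh replicate 2, Hspa1a had −0.25, Dnajb1 −0.15, Hsp90aa1 0.21 and Hspe1 −0.077 in these comparisons. With 5 uncorrected libraries each, Bag3 had 0.0063 between HT-Veh and WT-Veh. Hspa1a between WT-Flx and WT-Veh moved to −0.55 with the correction and −0.58 also without both libraries. Leaving out 1 library gave −0.10 to 0.025 for Hspa1a and −0.055 to 0.011 for Hspb1 at P10, −0.17 to 0.038 for Hsph1, −0.068 to 0.10 for Hspa8, −0.021 to 0.64 for Hsp90aa1, −0.42 to 0.084 for Hspb1 and −0.31 to 0.086 for Bag3 between HT-Veh and WT-Veh, −0.11 to 0.081 for Hspa1b and −0.011 to 0.059 for Dnajb1 between HT-Flx and HT-Veh, −0.048 to 0.092 for Hspe1 with age in HT and −0.50 to −0.18 for Hsp90aa1 with age in WT. The causes were not tested.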
